A study of Sus scrofa with 2 samples.

Results

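The genes described here are the growth factor ligands, receptors and SMADs of pig muscle. They were chosen by symbol, as the entries of the deposited table whose pig Ensembl identifier carries a symbol that begins with IGF, FGF, TGFB, BMP, GDF, ACVR, SMAD, VEGF, PDGF, WNT or FZD, with PDGFRA left out. The rule gave 99 genes of 27987 entries, of which 11 were in the IGF family, 18 in the FGF family, 40 in the TGF-beta/BMP family, 8 in the VEGF/PDGF family and 22 in the WNT family. By role, 47 were ligands, 26 receptors and 7 SMADs. The other 19 are binding proteins or have other roles, such as the IGF-binding proteins, the RNA-binding proteins IGF2BP1 and IGF2BP2 and the protease BMP1. IGF1R, IGF2, IGFBP3, FGF2, VEGFB, SMAD1 and WNT5A are not analysed here.

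The H30 group was kept at a constant 30 °C and the CON group at a constant 22 °C, both for 21 days. All animals were crossbred barrows (castrated males) of the DLY cross, from Duroc sires and Yorkshire-Landrace dams, that weighed 79.0 ± 1.5 kg. The study took 16 of them from 8 litters and put 8 in each arm. Their age is not stated. Messenger RNA of longissimus dorsi, the long back muscle, was measured in 1 library per group, and the labels do not say whether a library held the RNA of 1 pig or of several. Each difference below is therefore between 2 libraries with no replicate, in which temperature, animal and library cannot be told apart.

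Growth factors are secreted proteins that bind receptors on the cell surface. IGFs promote muscle growth and protein synthesis through insulin-like receptor kinases, FGFs act through receptor kinases and the RAS-MAPK cascade, and VEGF and PDGF act on blood vessels and on the stromal cells around them. Ligands of the TGF-beta, activin and BMP branches bring type II and type I receptor kinases together. These phosphorylate SMAD proteins, which enter the nucleus with SMAD4, while SMAD6 and SMAD7 inhibit the pathway. WNTs bind Frizzled receptors and stabilise beta-catenin. In adult muscle these families are known for their part in fibre size, satellite cell activity, matrix production and capillary supply.

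Levels are RPKM, reads corrected for the length of the gene and for the size of the library. The H30 library held 22863584 reads and the CON library 23608242, as recovered from the RPKM values, so that 1 read on a gene of 1 kb was worth 0.0437 RPKM in the H30 library and 0.0424 RPKM in the CON library. Muscle fibre genes such as ACTA1 (65219 RPKM in H30 and 68749 RPKM in CON) stood far above the growth factor genes, which fits muscle. The 99 genes together took 0.0823% of summed RPKM in the H30 library and 0.0819% in the CON library. In a tissue sample fewer cells of a type and less RNA per cell cannot be told apart.

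Of the 99 genes, 54 had a mean RPKM of at least 1 and were compared. The effect was the log2 ratio of H30 over CON after adding 1 to each RPKM, which understates the difference of low genes. By this measure no member was at least 1.5-fold higher or lower in the H30 library, where 3.44% of 13191 compared genes were higher and 2.37% lower by that much. By plain RPKM ratio VEGFD (1.56), FGF1 (1.52) and SMAD7 (0.611) passed 1.5-fold, but no share of all genes was taken for that rule. The largest difference upward was VEGFD (log2 ratio 0.46) and the largest downward was SMAD7 (-0.49). With a threshold of 1.25-fold, chosen after the values were seen, VEGFD, ACVR2A and FGF1 were higher and SMAD7 was lower. At that threshold 12.7% of all compared genes were higher and 7.77% lower. The middle 95% of the compared members lay between -0.29 and 0.40, and that of all compared genes between -0.57 and 0.66. Of the members 29 were above 0 and 25 below, beside 58.8% above and 41.2% below among all compared genes, and their median was 0.02 beside 0.05.

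**Figure D1:**
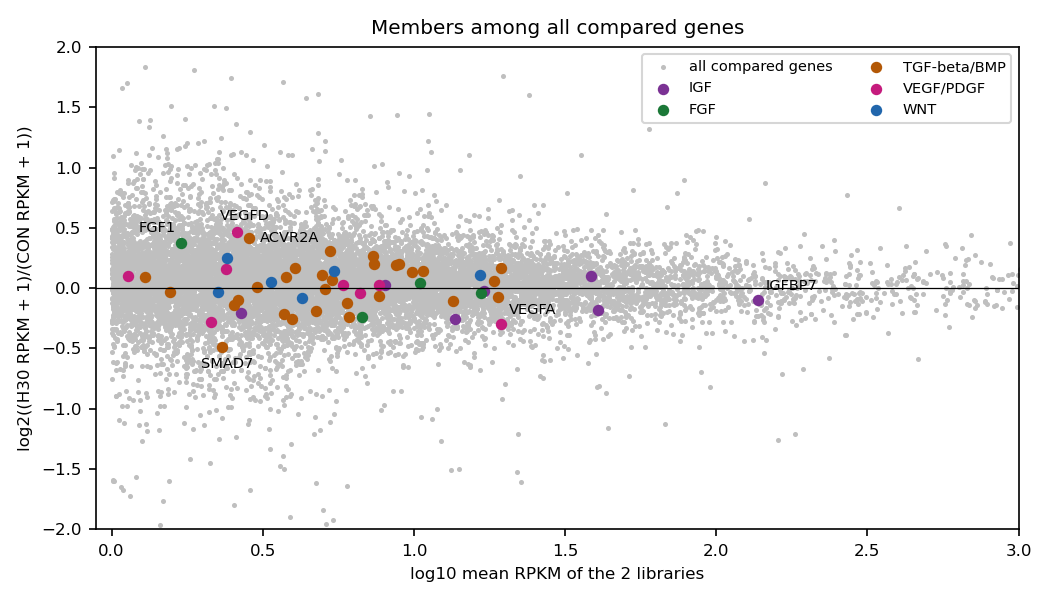
Log2 ratio of H30 over CON (RPKM plus 1) against the log10 mean RPKM of the 2 libraries. Grey points are all compared genes, apart from 84 outside the plotted range, and coloured points are the 54 compared members by family. All 54 lie between -0.49 (SMAD7) and 0.46 (VEGFD).

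A 95% Clopper-Pearson interval of the RPKM ratio was taken from the smallest whole reads that give both values. It covers counting error only and says nothing of the spread between pigs. Among 50 members with such an interval, 9 had one above 1 and 7 one below 1. Among 12639 compared genes it lay above 1 for 19.9% and below 1 for 9.91%. The 9 higher members were FGF1, VEGFD, WNT9A, GDF9, the receptors ACVR2A and TGFBR3, and SMAD3, SMAD4 and SMAD5. All were ligands, receptors or SMADs, as were 39 of the 50 members with an interval. With reads raised to a gene length of at least 1000 bp, 10 lay above 1 and 8 below, with TGFB1 and VEGFA added, beside 24.8% and 14.2% of all genes with an interval. Of the 7 lower ones, ACVR2B, ACVR1B and SMAD7 are ligands, receptors or SMADs, and IGFBP4, IGFBP5, BMP1 and FGFR1OP2 are not. That is 9 above and 3 below 1 of 39 in these roles, and 0 above and 4 below of the other 11. Centring on the median of all genes left 7 above and 8 below 1, with GDF9 and SMAD5 no longer above and VEGFA added below. Trimmed mean rescaling left SMAD3, ACVR2A, VEGFD and FGF1 above. These rescalings shift all genes alike, and no share of all genes was taken under them.

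**Figure D2:**
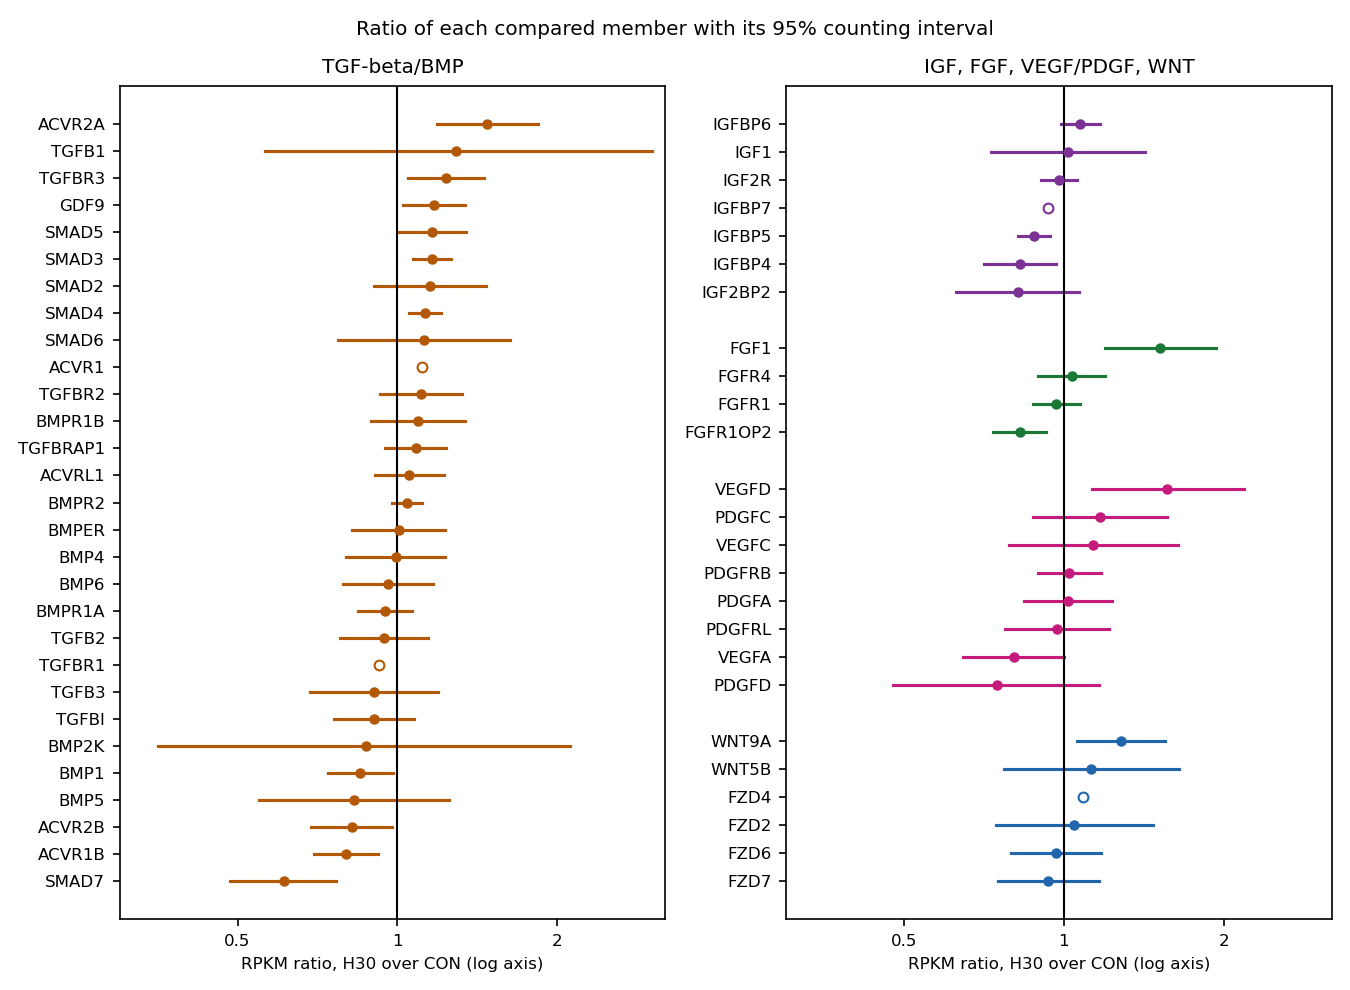
RPKM ratio of H30 over CON on a log axis for each compared member, with the TGF-beta/BMP family at the left and the other 4 families at the right. Lines are 95% counting intervals, and open circles are the 4 members whose values gave no whole reads. The interval of SMAD7 (0.485 to 0.767) has the lowest upper bound, and those of VEGFD, FGF1 and ACVR2A lie above it.

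Among TGF-beta ligands, TGFB2 was the main transcript. TGFB2 (ENSSSCG00000010816), a TGF-beta isoform, stood at 18.5 RPKM in the H30 library and 19.6 RPKM in the CON library, a ratio of 0.945 (0.781 to 1.14). TGFB1 (ENSSSCG00000003017), the isoform best known for matrix production and fibrosis, stood at 5.97 RPKM in H30 and 4.62 RPKM in CON. TGFB3 stood at 2.48 RPKM in H30 and 2.74 RPKM in CON. TGFB1 was thus the isoform that was higher in the H30 library, and its share of the summed RPKM of the 3 isoforms was 22.2% in H30 and 17.2% in CON. The sum itself was 26.9 RPKM in both libraries. For TGFB1 the smallest whole reads were only 15 in H30 and 12 in CON, since they correspond to a length of 110 bp, and the interval of its ratio of 1.29 was wide (0.564 to 3.02). With reads raised to a length of at least 1000 bp, a choice made after the values were seen, it was 1.01 to 1.65.

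The compared BMP ligands, which in muscle are known for growth-promoting signals that oppose the myostatin branch, were near each other in the 2 libraries or lower in H30. BMP4 stood at 5.07 RPKM in H30 and 5.11 RPKM in CON, BMP6 at 1.54 RPKM in H30 and 1.60 RPKM in CON. BMP5 stood at 3.38 RPKM in H30 and 4.07 RPKM in CON, a ratio of 0.830 with an interval that holds 1 (0.548 to 1.25). BMPER, a secreted modulator of BMPs, stood at 3.04 RPKM in H30 and 3.02 RPKM in CON. GDF9 (ENSSSCG00000014288), an oocyte-secreted factor in its known role, was the second highest ligand of the family, at 7.98 RPKM in H30 and 6.82 RPKM in CON (ratio 1.17, 1.02 to 1.34). The interval of GDF9 held 1 after centring (0.988 to 1.29). GDF11, close in sequence to myostatin, was below the compared range, at 0.800 RPKM in H30 and 0.947 RPKM in CON, on at least 9 and 11 reads.

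Of the type II receptors, ACVR2A and ACVR2B, both activin and myostatin receptors, differed in opposite directions. ACVR2A (ENSSSCG00000015669) stood at 3.41 RPKM in H30 and 2.31 RPKM in CON, on at least 203 and 142 reads, a ratio of 1.48 (1.19 to 1.84). ACVR2B (ENSSSCG00000011257) stood at 5.51 RPKM in H30 and 6.71 RPKM in CON, a ratio of 0.821 (0.688 to 0.979). The level of ACVR2A was thus 0.619 of that of ACVR2B in the H30 library and 0.344 of it in the CON library. After rescaling without the 10 highest genes the interval of ACVR2B held 1 (0.709 to 1.01), while that of ACVR2A stayed above 1 under the 3 rescalings. BMPR2, the type II receptor of BMPs, was the highest of these receptors at 18.7 RPKM in H30 and 18.0 RPKM in CON (ratio 1.04, 0.975 to 1.11). TGFBR2 stood at 10.4 RPKM in H30 and 9.37 RPKM in CON, with an interval of the ratio that holds 1 (0.928 to 1.33).

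The type I receptors were led by TGFBR1, the TGF-beta receptor kinase ALK5, at 12.9 RPKM in H30 and 13.98 RPKM in CON. ACVR1, a BMP receptor, stood at 11.3 RPKM in H30 and 10.1 RPKM in CON. Neither gave whole reads, so no interval is given. ACVR1B (ENSSSCG00000000233), the activin and myostatin receptor ALK4, stood at 3.51 RPKM in H30 and 4.40 RPKM in CON, on at least 367 and 474 reads, a ratio of 0.799 (0.696 to 0.918). Its interval stayed below 1 under the 3 rescalings. ACVRL1, a receptor of the endothelium, stood at 5.48 RPKM in H30 and 5.20 RPKM in CON. The BMP receptors BMPR1A (7.47 RPKM in H30 and 7.87 RPKM in CON) and BMPR1B (5.17 RPKM in H30 and 4.73 RPKM in CON) had intervals that hold 1. Summed over the 7 type I receptors the level was 45.8 RPKM in H30 and 46.4 RPKM in CON, and over the 4 type II receptors 38.0 RPKM in H30 and 36.4 RPKM in CON.

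TGFBR3 (ENSSSCG00000006911), or betaglycan, presents TGF-beta2 and inhibin to the signalling receptors. It stood at 8.11 RPKM in H30 and 6.58 RPKM in CON, a ratio of 1.23 (1.05 to 1.45). Trimmed mean rescaling brought the lower bound to 0.989.

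The SMADs, which carry the signal to the nucleus, were higher in the H30 library in 5 of 6 compared members, with SMAD7 as the exception, where 58.8% of all compared genes were above 0. The intervals of SMAD2 and SMAD6 among the 5 hold 1. SMAD2 (ENSSSCG00000004505) and SMAD3 (ENSSSCG00000004952), which serve the TGF-beta and activin branch, stood at 4.32 and 9.40 RPKM in H30, against 3.75 and 8.09 RPKM in CON. SMAD5 (ENSSSCG00000014319), which serves the BMP branch, stood at 9.59 RPKM in H30 and 8.23 RPKM in CON. SMAD4 (ENSSSCG00000004524), the partner shared by both branches, had the highest mean level of its family, at 20.5 RPKM in H30 and 18.2 RPKM in CON. The ratios of these 4 lay between 1.13 for SMAD4 and 1.16 for SMAD5. The intervals of SMAD3 (1.07 to 1.26), SMAD4 (1.05 to 1.21) and SMAD5 (1.01 to 1.35) lay above 1 and that of SMAD2 held it (0.903 to 1.47). All 4 log2 ratios stayed above 0 under the 3 rescalings, and after trimmed mean rescaling the interval lay above 1 for SMAD3 but held 1 for SMAD4 (0.993 to 1.14) and SMAD5 (0.952 to 1.27).

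SMAD7 (ENSSSCG00000004507), an inhibitor of the type I receptors that TGF-beta itself induces, stood at 1.75 RPKM in the H30 library and 2.87 RPKM in the CON library. These rest on at least 123 reads in H30 and 208 in CON. The ratio was 0.611 (0.485 to 0.767), and its log2 ratio of -0.49 was lower than that of all but 3.36% of compared genes. The other inhibitor, SMAD6, stood at 1.36 RPKM in H30 and 1.22 RPKM in CON, a ratio of 1.12 with an interval that holds 1 (0.773 to 1.63). SMAD3 was thus at 5.36 times the level of SMAD7 in the H30 library and at 2.82 times in the CON library. SMAD7 was still lower under the other pseudocounts and the 3 rescalings, with a log2 ratio between -0.68 with a pseudocount of 0.1 and -0.22 with a pseudocount of 5. SMAD9, a second SMAD of the BMP branch, was low, at 0.620 RPKM in H30 and 0.288 RPKM in CON on at least 25 and 12 reads, a ratio of 2.15 (1.04 to 4.70).

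**Figure D3:**
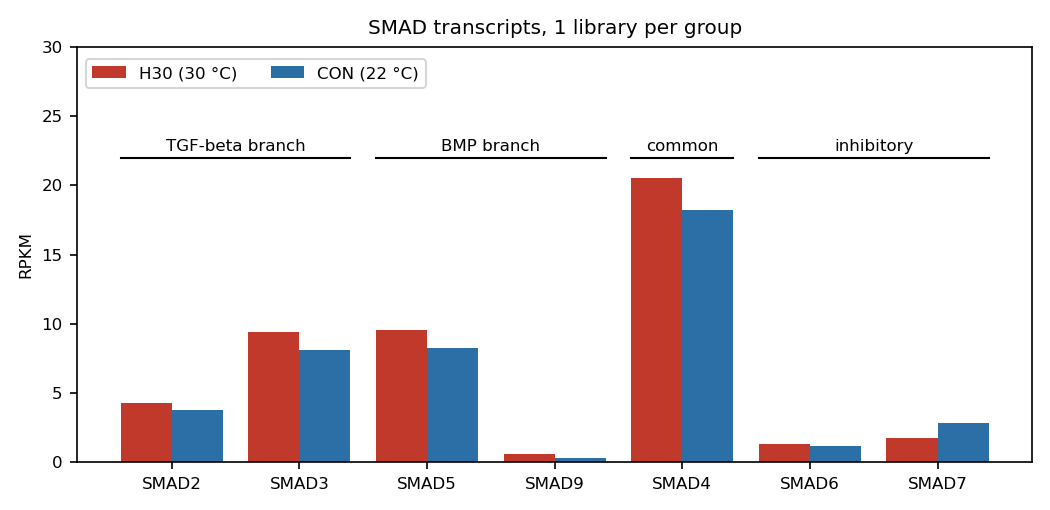
RPKM of the 7 SMAD genes, with H30 bars left of CON bars, by the branch each serves. Each bar is 1 library with no error bar, and SMAD7 is the single SMAD whose H30 bar is the lower one (1.75 RPKM against 2.87 RPKM).

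The members of this family that are not ligands, receptors or SMADs were lower in H30 or had ratios near 1. BMP1, a protease that trims procollagen, stood at 4.38 RPKM in H30 and 5.14 RPKM in CON, a ratio of 0.852 (0.740 to 0.980). After rescaling without the 10 highest genes that interval held 1 (0.762 to 1.01). The matrix protein TGFBI stood at 5.72 RPKM in H30 and 6.33 RPKM in CON, the kinase BMP2K at 2.37 RPKM in H30 and 2.71 RPKM in CON and the receptor-associated protein TGFBRAP1 at 3.92 RPKM in H30 and 3.62 RPKM in CON. The intervals of these 3 hold 1. Over 29 compared members the median log2 ratio of the TGF-beta/BMP family was 0.06, and it became -0.02 after trimmed mean rescaling.

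Other genes of these branches were taken from a list of binding proteins, antagonists, further ligands and targets, of which 29 of 44 were matched and 23 compared. Their median log2 ratio was 0.11. Among 22 with an interval, 6 lay above 1 and 2 below, to be read beside the 19.9% above and 9.91% below of all compared genes. The highest was MSTN, myostatin, the activin-like inhibitor of muscle growth, at 21.3 RPKM in H30 and 16.3 RPKM in CON, with no interval. NEDD4L, a ubiquitin ligase, came next at 4.28 RPKM in H30 and 3.22 RPKM in CON (ratio 1.33, 1.14 to 1.56). The lowest were CCN2, a matrix-associated protein induced by TGF-beta, at 7.73 RPKM in H30 and 9.93 RPKM in CON (0.779, 0.684 to 0.885), and THBS1, an activator of latent TGF-beta, at 6.86 RPKM in H30 and 8.51 RPKM in CON (0.806, 0.657 to 0.987).

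The IGF family was near 1 at its ligand and receptor and lower at most binding proteins. IGF1 (ENSSSCG00000000857), the ligand, stood at 8.09 RPKM in the H30 library and 7.94 RPKM in the CON library, a ratio of 1.02 (0.729 to 1.42). IGF2R (ENSSSCG00000004044), which carries IGF2 to the lysosome, stood at 16.9 RPKM in H30 and 17.2 RPKM in CON, a ratio of 0.980 (0.906 to 1.06). Without rescaling, the counting interval thus leaves out an IGF2R difference of more than 10%. That bound holds for the unscaled totals only, since trimmed mean rescaling moved the log2 ratio of IGF2R from -0.03 to -0.11. The interval of IGF1 is wider because its smallest whole reads were 74 in H30 and 75 in CON.

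The 4 compared binding proteins stood above the ligand. IGFALS (0.197 RPKM in H30 and 0.318 RPKM in CON), IGFBPL1 and IGFBP1 were below the compared range and stood below it. IGFBP7 (ENSSSCG00000008913), a matrix protein that binds IGFs weakly and is abundant in vessels, was the highest of all members, at 132 RPKM in H30 and 142 RPKM in CON, a ratio of 0.932 with no interval. Its level was 16.3 times that of IGF1 in H30 and 17.9 times in CON. IGFBP5 (ENSSSCG00000025924), a binding protein made by muscle cells, stood at 37.9 RPKM in H30 and 43.1 RPKM in CON, on at least 1440 and 1693 reads, a ratio of 0.878 (0.818 to 0.943). IGFBP4 (ENSSSCG00000017472), which holds IGFs inactive, stood at 12.4 RPKM in H30 and 14.97 RPKM in CON, a ratio of 0.827 (0.708 to 0.964). Under the 3 rescalings both intervals stayed below 1. IGFBP6, which prefers IGF2, was the exception at 39.8 RPKM in H30 and 37.0 RPKM in CON, a ratio of 1.07 with an interval that holds 1 (0.986 to 1.17). Summed over these 4 the level was 222 RPKM in H30 and 237 RPKM in CON. IGF2BP2, an RNA-binding protein, stood at 2.41 RPKM in H30 and 2.95 RPKM in CON, a ratio of 0.820 (0.628 to 1.07). The family's median log2 ratio was -0.10 over 7 compared members, and it was below 0 under each alternative run, from -0.18 after trimmed mean rescaling to -0.06 after rescaling without the 10 highest genes.

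Of 33 listed genes of IGF and insulin signalling, 26 were matched and 20 compared. Their median log2 ratio was 0.11, and the interval lay above 1 for 9 and below 1 for 1 of the 19 that had one, beside 19.9% and 9.91% of all compared genes with an interval. The highest were INSR, the insulin receptor, at 4.37 RPKM in H30 and 3.33 RPKM in CON (ratio 1.31, 1.05 to 1.65), and STAT5B, which relays growth hormone signals, at 28.3 RPKM in H30 and 22.7 RPKM in CON (1.24, 1.17 to 1.32). The lowest were STC2, an inhibitor of the protease that frees IGFs, at 0.894 RPKM in H30 and 1.14 RPKM in CON, and AKT2, the kinase of insulin action, at 77.5 RPKM in H30 and 87.2 RPKM in CON (0.889, 0.845 to 0.936).

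FGF ligands were low, with FGF1, FGF9 and FGF21 higher and FGF18 lower in the H30 library. FGF1 (ENSSSCG00000024954), a broad ligand of the FGF receptors that is known to be made in muscle, was the only ligand in the compared range. It stood at 2.04 RPKM in H30 and 1.34 RPKM in CON, on at least 175 and 119 reads, a ratio of 1.52 (1.20 to 1.93). FGF9 (ENSSSCG00000009278) stood at 0.856 RPKM in H30 and 0.349 RPKM in CON, on at least 38 and 16 reads, a ratio of 2.45 (1.34 to 4.71). FGF21 (ENSSSCG00000003140), a hormone that stressed muscle can release, stood at 0.835 RPKM in H30 and 0.323 RPKM in CON. Its smallest whole reads were 5 in H30 and 2 in CON, and its ratio of 2.58 had an interval that holds 1 (0.423 to 27.1). With reads raised to a length of at least 1000 bp it was 1.09 to 6.78. FGF18 stood at 0.588 RPKM in H30 and 0.959 RPKM in CON, with an interval that holds 1 (0.328 to 1.12). FGF10 and FGF16 were under 0.05 RPKM in both libraries, FGF4 was listed at 0 in H30, and FGF17, FGF19 and FGF20 were listed at 0 in both.

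Receptor levels were near each other in the 2 libraries. FGFR1 (ENSSSCG00000015815), the main receptor of mesenchymal cells and satellite cells, stood at 16.3 RPKM in H30 and 16.9 RPKM in CON, a ratio of 0.968 (0.875 to 1.07). FGFR4 (ENSSSCG00000014047), known in muscle regeneration, stood at 10.7 RPKM in H30 and 10.3 RPKM in CON, a ratio of 1.04 (0.895 to 1.20). FGFR2 and FGFR3 were below 0.2 RPKM in both libraries, so that FGFR1 and FGFR4 together held nearly all of the receptor RPKM. FGFR1OP2, named after a fusion with FGFR1, stood at 6.10 RPKM in H30 and 7.39 RPKM in CON, a ratio of 0.826 (0.736 to 0.926). The median log2 ratio of 4 compared members was 0.00, and it ran from -0.08 after trimmed mean rescaling to 0.04 after rescaling without the 10 highest genes.

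Of 28 listed genes between FGF receptors and MAPK, 20 were matched and 19 compared, with a median log2 ratio of -0.01. The interval lay above 1 for 4 and below 1 for 3 of 19, beside the same 19.9% and 9.91%. The highest were the docking protein GAB1 at 6.56 RPKM in H30 and 4.89 RPKM in CON (ratio 1.34, 1.19 to 1.51) and IL17RD, an inhibitor of FGF signalling, at 4.69 RPKM in H30 and 3.56 RPKM in CON (1.32, 1.11 to 1.57). The lowest were ETV4, a transcription factor induced by FGF, at 1.67 RPKM in H30 and 2.72 RPKM in CON (0.617, 0.469 to 0.807), and SPRY2, a feedback inhibitor, at 10.8 RPKM in H30 and 12.3 RPKM in CON.

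**Figure D4:**
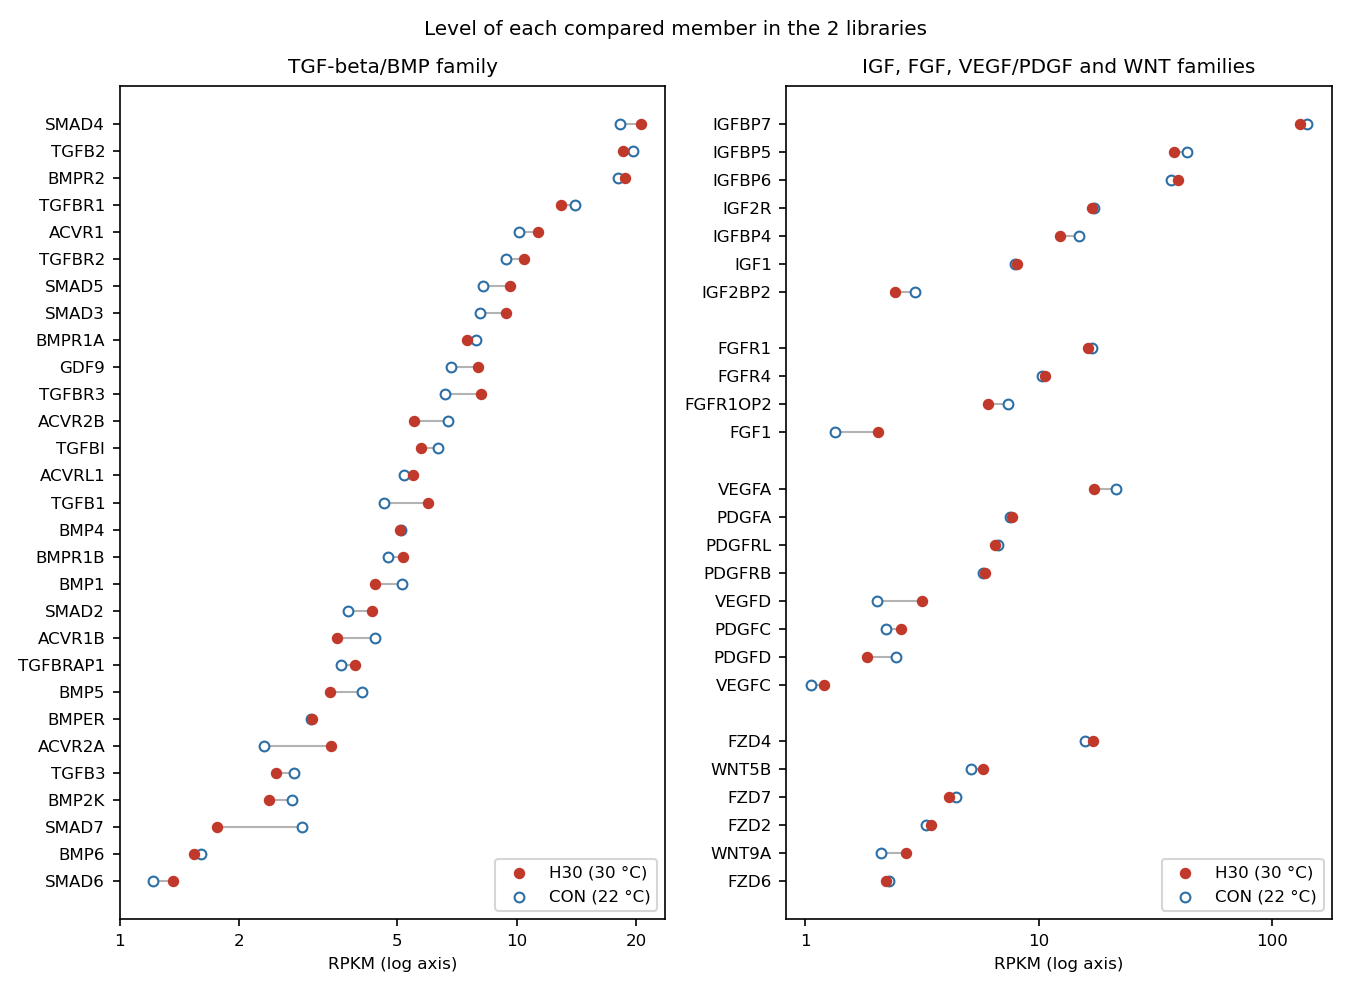
RPKM of each compared member on a log axis, ordered by mean level within a family. Filled points are the H30 library and open points the CON library, and a grey line joins them. Levels run from 1.06 RPKM (VEGFC in CON) to 142 RPKM (IGFBP7 in CON), and the widest gaps belong to SMAD7, ACVR2A, VEGFD and FGF1.

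Within the VEGF family the make-up differed between the libraries. VEGFA (ENSSSCG00000001695), the main inducer of capillary growth, stood at 17.3 RPKM in the H30 library and 21.5 RPKM in the CON library. VEGFD (ENSSSCG00000012135), a ligand known for the growth of lymph vessels, stood at 3.17 RPKM in H30 and 2.03 RPKM in CON. VEGFC, its relative, stood at 1.20 RPKM in H30 and 1.06 RPKM in CON. VEGFA was lower and VEGFD higher in H30, so that the level of VEGFA was 5.44 times that of VEGFD in H30 and 10.6 times in CON. For VEGFD the ratio was 1.56 (1.13 to 2.18), on at least 97 reads in H30 and 64 in CON, and the interval stayed above 1 under the 3 rescalings. For VEGFA the ratio was 0.804, and the interval just held 1 (0.644 to 1.002) with the smallest whole reads of 148 in H30 and 190 in CON. Reads raised to a length of at least 1000 bp gave 0.709 to 0.912, and the interval also lay below 1 after centring (0.623 to 0.968) and after trimmed mean rescaling (0.608 to 0.946). Without the 10 highest genes it held 1 (0.664 to 1.03). VEGFA was higher in CON and VEGFD higher in H30 under the other pseudocounts and the 3 rescalings.

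**Figure D5:**
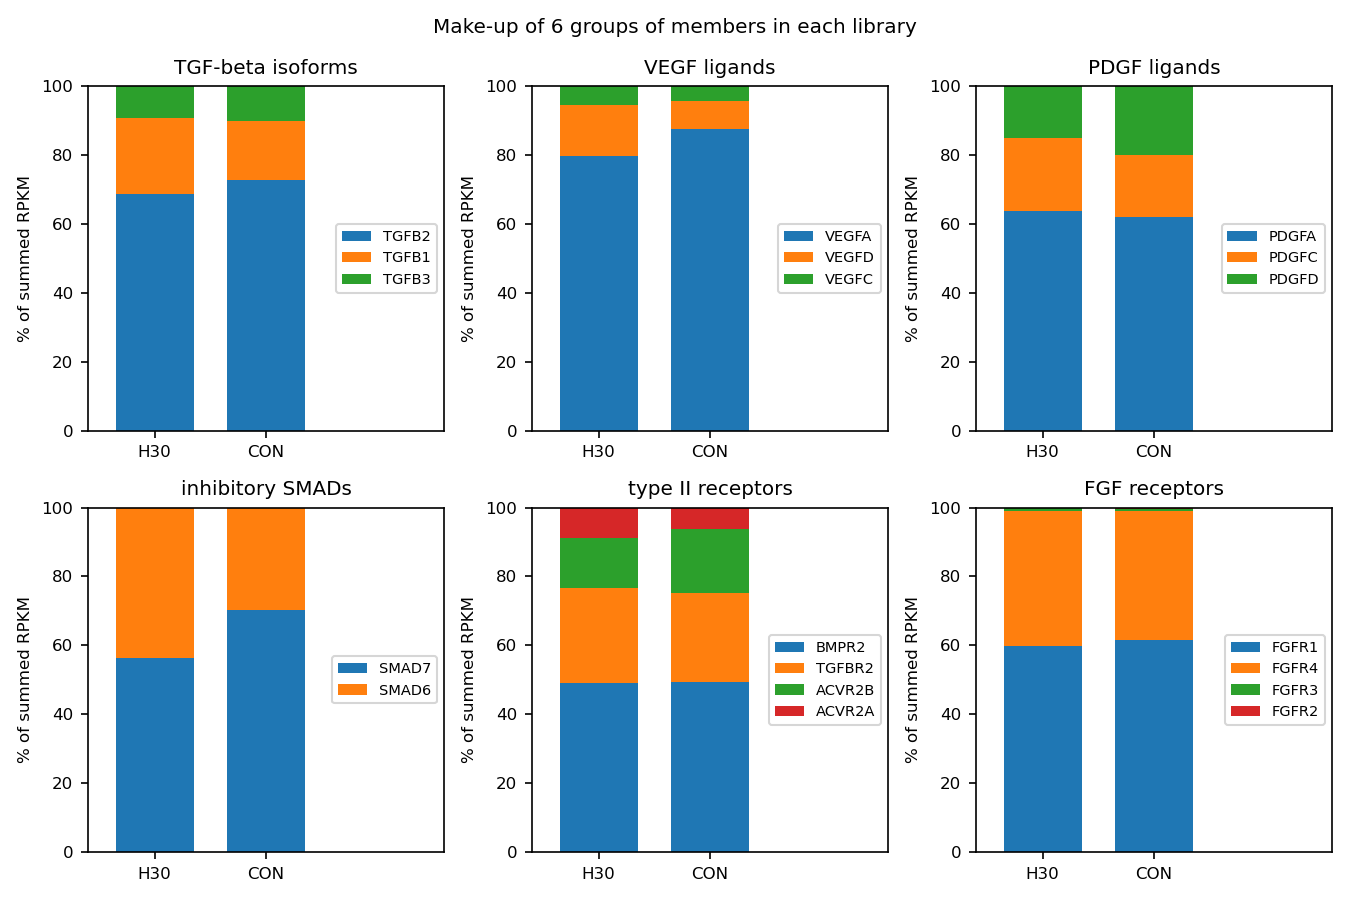
Share of each gene in the summed RPKM of 6 groups of members, with the H30 library left of the CON library. VEGFD held 14.7% of the VEGF ligands in H30 and 8.25% in CON, and SMAD7 held 56.3% of the inhibitory SMADs in H30 and 70.3% in CON.

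PDGF genes were closer to each other. PDGFA (ENSSSCG00000007541), a mitogen of stromal cells, stood at 7.72 RPKM in H30 and 7.58 RPKM in CON, a ratio of 1.02 (0.842 to 1.23). PDGFRB (ENSSSCG00000022741), the receptor of pericytes, stood at 5.91 RPKM in H30 and 5.77 RPKM in CON, a ratio of 1.02 (0.892 to 1.17). PDGFC stood at 2.58 RPKM in H30 and 2.21 RPKM in CON, and PDGFD at 1.83 RPKM in H30 and 2.44 RPKM in CON. PDGFC was thus above PDGFD in H30 and below it in CON, but the intervals hold 1. The ratio was 1.17 for PDGFC (0.873 to 1.56) and 0.749 for PDGFD (0.477 to 1.17). PDGFRL, a receptor-like protein, stood at 6.53 RPKM in H30 and 6.72 RPKM in CON, a ratio of 0.971 (0.776 to 1.21). The family's median log2 ratio was 0.03 over 8 members, and it ran from -0.05 after trimmed mean rescaling to 0.06 after rescaling without the 10 highest genes.

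Of 20 listed partners, 12 were matched and 10 compared, with a median log2 ratio of -0.01. The compared VEGF receptors KDR (4.63 RPKM in H30 and 5.09 RPKM in CON) and FLT1 (7.02 RPKM in H30 and 6.96 RPKM in CON) had intervals that hold 1. The highest was TEK, the angiopoietin receptor, at 6.67 RPKM in H30 and 5.37 RPKM in CON (ratio 1.24, 1.10 to 1.3997), the single interval above 1 among 9 (19.9% of all genes with one), and NOTCH4 was next at 12.7 RPKM in H30 and 11.6 RPKM in CON. The lowest were ANGPT1 at 0.925 RPKM in H30 and 1.303 RPKM in CON and DLL4 at 1.92 RPKM in H30 and 2.39 RPKM in CON. No interval of a compared partner lay below 1. The 2 partners below the compared range, FLT4 and ANGPT2, both had one below 1, but no share of all genes was taken in that range. FLT4, a further VEGF receptor, stood at 0.096 RPKM in H30 and 0.269 RPKM in CON, on at least 9 and 26 reads (ratio 0.357, 0.147 to 0.787). ANGPT2 stood at 0.707 RPKM in H30 and 1.03 RPKM in CON (0.684, 0.521 to 0.893). HIF1A, which drives VEGFA under low oxygen, stood at 6.96 RPKM in H30 and 6.89 RPKM in CON.

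Cells that make or receive these factors could differ in number. Of 10 endothelial markers 6 were measured, and they summed to 162 RPKM in H30 and 145 RPKM in CON. Most of that was PECAM1, at 127 RPKM in H30 and 111 RPKM in CON. TEK was also higher, while KDR and TIE1 were lower in H30 with intervals that hold 1. The median log2 ratio of the 6 was 0.03, beside 0.05 for all compared genes. Of 9 fibroblast markers 8 were measured, at 881 RPKM in H30 and 975 RPKM in CON, and 4 of 7 intervals lay below 1. DCN, FBLN1 and DPP4 were higher in H30, with intervals that hold 1. Of 6 pericyte and smooth muscle markers 3 were measured, at 77.8 RPKM in H30 and 63.95 RPKM in CON, which ACTA2 led, while CSPG4 and NOTCH3 were lower in H30. The 3 measured of 6 adipocyte markers summed to 15.96 RPKM in H30 and 24.4 RPKM in CON, and 3 of 3 intervals lay below 1. Among all compared genes with an interval, 9.91% lay below 1. The remaining lists were short. Satellite cell markers summed to 25.3 RPKM in H30 and 28.0 RPKM in CON over 4 genes, with MYOD1, MYF5 and CALCR lower and CDH15 higher in H30. Macrophage markers summed to 26.4 RPKM in both over 4, with CD68 higher (ratio 1.49) and MRC1 lower (0.744) in H30. Lymphocyte markers summed to 4.96 RPKM in H30 and 3.28 RPKM in CON over 2. Schwann cell markers summed to 17.3 RPKM in H30 and 21.2 RPKM in CON over 2. The 6 measured fibre markers summed to 126219 RPKM in H30 and 131156 RPKM in CON. ACTA1, TNNC2 and ENO3 were lower and MYL1, TPM2 and DES higher in H30. No measured marker was listed at 0, and the part of these in the differences above was not tested.

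The WNT family was mostly receptors in this muscle. FZD4 (ENSSSCG00000014920), a Frizzled of the endothelium, led them at 17.2 RPKM in the H30 library and 15.8 RPKM in the CON library, a ratio of 1.09 with no interval. FZD7 (ENSSSCG00000016111), a receptor of satellite cells, stood at 4.13 RPKM in H30 and 4.42 RPKM in CON, a ratio of 0.935 (0.752 to 1.16). FZD6 stood at 2.21 RPKM in H30 and 2.29 RPKM in CON, a ratio of 0.966 (0.794 to 1.18), and FZD2 at 3.46 RPKM in H30 and 3.30 RPKM in CON. The intervals of these 3 hold 1. FZD5 was low, at 0.248 RPKM in H30 and 0.454 RPKM in CON on at least 18 and 34 reads, a ratio of 0.547 (0.291 to 0.995).

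Only WNT5B and WNT9A of 14 ligands were in the compared range. WNT9A (ENSSSCG00000024671), a ligand known from joints and liver, stood at 2.71 RPKM in H30 and 2.12 RPKM in CON, on at least 247 and 199 reads, a ratio of 1.28 (1.06 to 1.55). Trimmed mean rescaling brought the lower bound to just under 1. WNT5B (ENSSSCG00000000759), a ligand of the branch that does not use beta-catenin, stood at 5.77 RPKM in H30 and 5.13 RPKM in CON, a ratio of 1.12 with an interval that holds 1 (0.770 to 1.65). WNT11 stood at 0.181 RPKM in H30 and 0.376 RPKM in CON, on at least 7 and 15 reads. WNT1, WNT3, WNT3A, WNT8A, WNT10A and WNT16 were listed at 0 in both libraries. The family's median log2 ratio was 0.08 over 6 compared members, and it stayed above 0 under each alternative run.

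Of 43 listed WNT partners, 36 were matched and 23 compared, with a median log2 ratio of -0.02. Of 22 with an interval, 4 lay above 1 and 2 below, again beside 19.9% and 9.91%. The secreted antagonists SFRP5 and SFRP1 were the lowest, and on the log2 scale with 1 added they were the only genes of the 5 partner lists past 1.5-fold. By plain RPKM ratio ETV4 (0.617) and KREMEN1, a co-receptor of DKK antagonists, also passed it among the compared partners. Some partners below the compared range passed it too, and no share of all genes was taken for that rule. KREMEN1 stood at 2.82 RPKM in H30 and 4.26 RPKM in CON (ratio 0.662, 0.384 to 1.12). SFRP1 stood at 1.3 RPKM in H30 and 2.67 RPKM in CON (ratio 0.487, 0.366 to 0.644). SFRP5 stood at 1.92 RPKM in H30 and 3.72 RPKM in CON, with an interval that holds 1 (0.114 to 1.93). The highest were PORCN, which loads WNTs with lipid, at 1.13 RPKM in H30 and 0.890 RPKM in CON, and DVL2, which acts below Frizzled, at 10.7 RPKM in H30 and 9.35 RPKM in CON (1.14, 1.02 to 1.28). CTNNB1, beta-catenin, stood at 44.3 RPKM in H30 and 41.8 RPKM in CON (1.06, 1.01 to 1.11), and AXIN2, a target gene of the pathway, at 1.12 RPKM in H30 and 1.03 RPKM in CON.

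The other 45 members were below the compared range. Of these, 15 were listed at 0 in both libraries, 8 were above 0 in CON only (IGF2BP1, IGFBPL1, FGF4, FGFBP3, GDF5, ACVR1C, WNT7B and WNT8B) and GDF3 was above 0 in H30 only. The 9 levels found in 1 library only ran from 0.0130 to 0.166 RPKM. Since 3 reads on a gene of 1 kb are worth 0.131 RPKM in H30 and 0.127 RPKM in CON, a 0 in these does not show that a gene was off. The remaining 21 were above 0 in both, and among them the interval lay above 1 for FGF9 and SMAD9 and below 1 for FZD5. No share of all genes was taken in this low range, so these intervals have no background beside them.

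Some members lie beside each other on the chromosome in the Sscrofa11.1 assembly, which is not the build of the files and is used here for gene order only. In 10 cases at most 5 protein-coding genes lie between them, and both members were compared in 5 of these. SMAD2 (log2 ratio 0.16) and SMAD7 (-0.49) have 2 genes between them and went opposite ways. ACVRL1 (0.06) and ACVR1B (-0.26) are direct neighbours, as are TGFBI (-0.12) and SMAD5 (0.20). SMAD6 (0.09) and SMAD3 (0.19) are neighbours that were both higher in H30. FZD7 (-0.08) and BMPR2 (0.06) have 3 genes between them. In that assembly 10 compared members overlap another protein-coding gene. Among them SMAD3 overlaps AAGAB, at 24.8 RPKM in H30 and 25.7 RPKM in CON, and IGFBP7 overlaps POLR2B, at 17.8 RPKM in H30 and 17.9 RPKM in CON. The library kit is not described as keeping the strand, so reads of overlapping genes may not be separable.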

How the data were processed

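The authors deposited 1 table with an RPKM value per gene and library (27987 entries, 1 H30 and 1 CON column). Per the submitters' processing notes, Bowtie, TopHat 1.4.0, Cufflinks 1.3.0 and Sscrofa10.2 are named with no role. No source states how reads were counted or which gene lengths were used. Libraries, per the labels' protocols, came from 3 µg of RNA by poly(A) selection and 10 PCR cycles.

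Symbols came from a table that matched 11374 entries. Of low entries (mean RPKM under 5), 99.9% gave whole reads of at most 1000 per library, against 0 to 7.78% with 20 random ratios of totals. A ratio that differs from the one used by a simple fraction would also give whole reads, so the most frequent ratio among low genes was taken. The total was the largest one at which most gene lengths came out whole. Reads are minima, which widens the intervals, while PCR duplicates among the reads would make them too narrow. With 1 library per group they cover counting error only. The log2 ratio used a pseudocount of 1 and a mean RPKM of at least 1. With 1 library per group no test was possible.

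By rule, ratio and interval were given for members past 1.5-fold, the 2 highest and 2 lowest log2 ratios and the 3 highest mean levels of each family, and the 2 highest and 2 lowest of each partner list were named. Other ratios, intervals and partner genes were chosen after their values were seen. The members, partner lists and marker lists were chosen with earlier results of these data known. The steps were tested on simulated data, with Python 3.11.15 and scipy 1.17.1. Sequences were not used here.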

Additional observations from a re-analysis of the deposited data

How the results depend on the processing

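No paired analysis was possible because only 1 H30 and 1 CON library exist here. The counts of members at least 1.5-fold higher and lower, 0 and 0, became 1 and 1 with a pseudocount of 0.1 (VEGFD and SMAD7) and 3 and 1 with a threshold of 1.25-fold. Intervals above and below 1, 9 and 7 members, became 5 and 4 when only the 31 members with a mean RPKM of 5 or more were compared. They were 4 above and 8 below after trimmed mean rescaling, and 11 above and 5 below after rescaling without the 10 highest genes. For these interval counts other than 9 and 7 no share of all genes was taken. The shifts therefore describe the members only and cannot be called particular to them. With ligands, receptors and SMADs only, 3 lay below 1. The median log2 ratio of members, 0.02, became -0.0495 after trimmed mean rescaling. The median of all genes was 0.05, and it was -0.02 after that rescaling and 0.09 without the 10 highest genes. When 5 was added to each RPKM, the log2 ratios of SMAD7 (-0.22), FGF1 (0.15) and ACVR2A (0.20) lay nearer to 0 than the counting intervals of their RPKM ratios. No called value changed sign. Summing entries of 1 symbol moved nothing, since each member symbol is on 1 entry. The 1.25-fold threshold and the length of at least 1000 bp were added after seeing the data. Depth limits members with few reads most, such as FGF21. Among compared members with an interval, 9 had a recovered length under 1000 bp, and some members below the compared range, FGF21 among them, did too.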
